A study of Rattus norvegicus with 16 samples.

Results

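The genes described here encode the ligands, extracellular regulators, receptors and signal carriers of the transforming growth factor beta (TGF-beta) and bone morphogenetic protein (BMP) pathways, measured in rat glomeruli. They were taken from the expression table by gene name: every row named Tgfb1 to Tgfb3, Tgfbr, Bmp or Bmpr, Smad, Acvr, Inhb, Ltbp, Grem1, Fst, Fstl or Smurf. The rule found 44 of the 13222 genes in the table, and the rule reads names and no measured values. By role they were 10 ligands, 8 latency proteins and antagonists, 12 receptors, 8 SMADs and 2 ubiquitin ligases. The other 4 share a name prefix or process matrix proteins: Bmp1, Bmp2k, Tgfb1i1 and Tgfbrap1.

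The samples were poly(A) RNA of sieved glomeruli from male Wistar rats of about 175 g, taken on day 11. Healthy controls were compared with rats given puromycin aminonucleoside (PAN) by vein, a podocyte toxin that causes a nephrotic syndrome in rats, and with PAN rats that also received pioglitazone or GQ-16 by gavage each day. Pioglitazone is a full agonist of the nuclear receptor PPAR-gamma and GQ-16 a partial agonist. There were 4 libraries in each of the 4 groups: control, PAN, and PAN with either drug. The labels mention a sham vehicle without saying which groups received it, and they state no dose and no age. They do not state that each library came from its own rat. The libraries are called rats here, and should some share an animal, the p-values below measure only the spread between libraries.

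TGF-beta ligands are secreted in a latent form that latent TGF-beta binding proteins (LTBPs) anchor in the matrix. Once freed, TGF-beta and activins bind type II and type I receptor kinases that phosphorylate SMAD2 and SMAD3, while BMPs act through SMAD1, SMAD5 and SMAD9; both arms share SMAD4, and SMAD6, SMAD7 and the SMURF ubiquitin ligases damp the signal. In the glomerulus TGF-beta is known for matrix accumulation and podocyte loss, and BMP7 for opposing it.

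Levels are given as CPM, the reads of a gene scaled to the reads of its library, and differences as log2 of CPM + 1 with the 95% interval from limma. A gene is said to have risen or fallen, or is called, where its limma p-value, adjusted over all 13222 genes by the Benjamini-Hochberg method, was under 0.05. The libraries held 13351137 to 21977663 reads, so that 3 reads correspond to 0.137 to 0.225 CPM. CPM values show a gene's share of the library. They are compared between rats and not between genes, because no gene lengths were used, except to pick which uncalled list genes are named.

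Several properties of the libraries moved with the groups. The 13 mitochondrial genes took 13.7% to 39.0% of the reads in control, 5.83% to 10.6% in PAN, 8.61% to 19.0% in PAN plus pioglitazone and 6.63% to 30.9% in PAN plus GQ-16. Since CPM divides by all reads, a lower mitochondrial share raises the CPM of all other genes. Between PAN and control, the middle of all genes lay at a log2 difference of 0.28 as deposited; after median-ratio scaling it lay at -0.0032. The glomerular markers were present: all 9 podocyte markers and 8 of 9 endothelial markers were listed in the table, and of 7 skeletal muscle markers none was. Summed podocyte markers were 2768 to 9563 CPM in control and 7614 to 10919 CPM in PAN. The 7 summed mesangial and smooth muscle markers were 295 to 788 CPM in control, 1564 to 2400 CPM in PAN, 1123 to 1590 CPM in PAN plus pioglitazone and 706 to 1287 CPM in PAN plus GQ-16. All 7 rose in PAN as deposited, and Des made up a mean of 85.6 CPM of the sum in control and 725 CPM in PAN. The 3 listed fibroblast markers summed to 18.7 to 73.0 CPM in control and 107 to 1858 CPM in PAN, and the 7 macrophage and leukocyte markers to 122 to 168 CPM and 168 to 488 CPM. Tubular RNA was present in every group, with 6 proximal tubule markers summing to 3332 to 7416 CPM in control and 2552 to 8444 CPM in PAN. The 6 markers of loop, distal tubule and collecting duct summed to 842 to 1520 CPM in control, 429 to 973 CPM in PAN, 536 to 629 CPM in PAN plus pioglitazone and 573 to 1067 CPM in PAN plus GQ-16. Of these 6 markers 3 fell in PAN (Umod, Slc12a3 and Calb1), all 6 had a negative difference and their median was -0.66; after median-ratio scaling 2 of them were called. In such bulk tissue, more cells of a type cannot be told apart from more RNA per cell, and the part of these marker differences in the results below was not tested.

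PAN replicate 1, control replicate 1 and PAN replicate 4 each stood apart from their groups in some markers. PAN replicate 1 had 1858 CPM of fibroblast markers against 107 to 289 CPM in the other PAN rats, and 488 CPM of macrophage and leukocyte markers against 168 to 234 CPM. Control replicate 1 had 9563 CPM of podocyte markers against 2768 to 4913 CPM in the other controls. PAN replicate 4 had 8444 CPM of proximal tubule markers against 2552 to 4504 CPM in the other PAN rats. The number in the library's title also followed the groups: numbers of 25 or higher belonged to 3 PAN rats, 1 rat on pioglitazone, 1 on GQ-16 and no control, and the labels do not say what it stands for.

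PAN was first compared with control, which shows how the pathway stood in injured glomeruli. Of the 44 genes, 11 rose in PAN and none fell, among them the ligands Bmp3 and Tgfb3, the secreted protein Fstl1 and the focal adhesion protein Tgfb1i1. The 11 are 25% of the members, where 22.3% of all genes were called (21.7% higher and 0.522% lower), so the share of members called was near that of the table. The median difference of the members was 0.32 and that of all genes 0.28. By role, a placement that was not tested, 4 of 10 ligands, 4 of 8 latency proteins and antagonists and 3 of the 4 name-prefix genes rose, against none of 12 receptors, none of 8 SMADs and neither SMURF. At an unadjusted p under 0.05 there were 17 members, beside 42.1% of all genes. After median-ratio scaling, which sets the middle of all genes to about 0, 10 members rose and 1 fell among the 11 called, against 8.63% of all genes (7.12% higher and 1.51% lower). Fstl3 then left the list and Tgfbr2 entered it as the one that fell, and 24 of 44 members had a positive difference in place of 36 of 44. Quantile normalization called 9 members higher and 2 lower, Tgfbr2 and Bmp15, beside 8.59% of all genes. With the class of title number as a term in the fit, the count fell to 5 (Bmp2k, Bmp3, Fstl1, Tgfb1i1 and Tgfb3), beside 2.97% of all genes. The groups did not overlap for 11 members, all higher in PAN, which is 25% of them against 22.4% of all genes (23.3% in either direction).

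**Figure D1:**
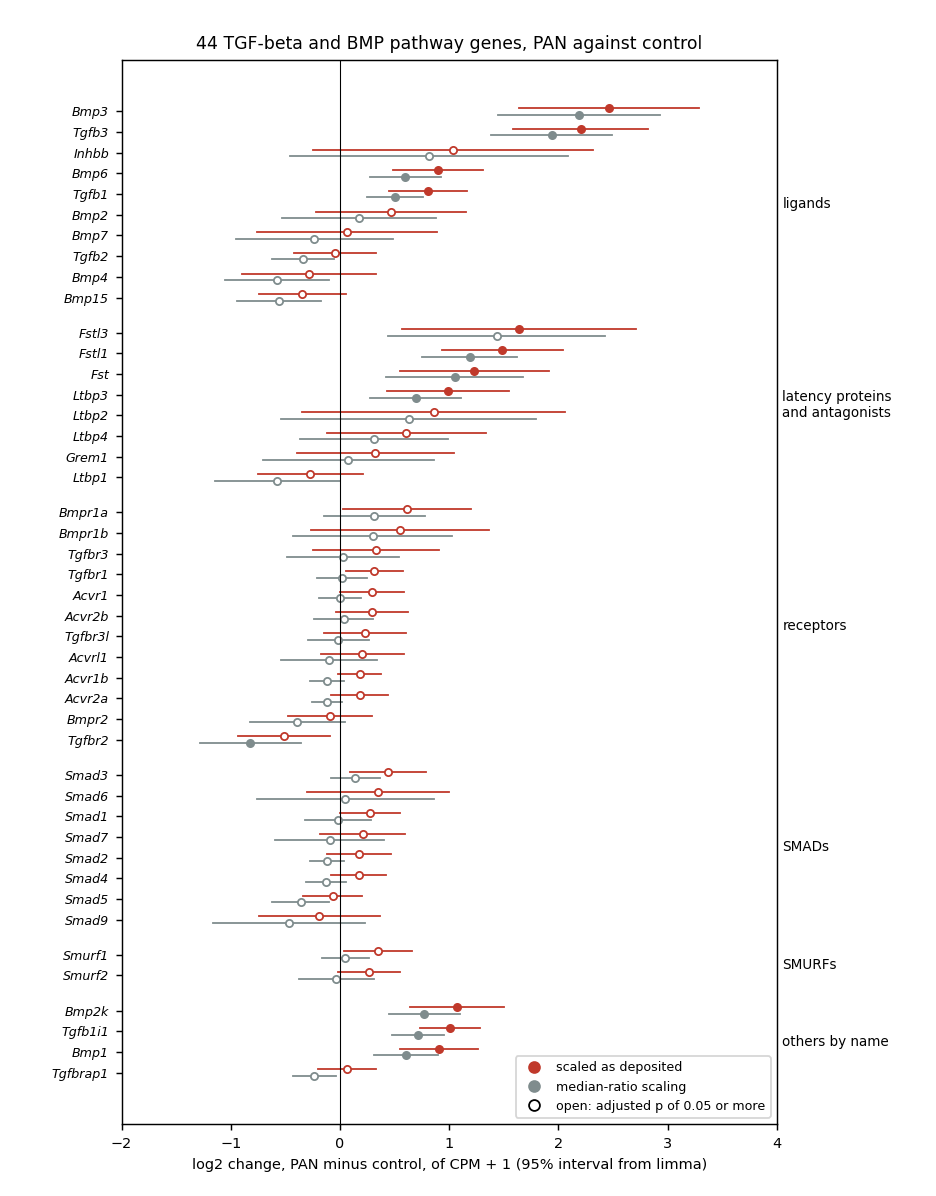
Log2 difference of CPM + 1 between PAN and control for each of the 44 genes, ordered by role, with 95% intervals; red points are scaled as deposited, grey points after median-ratio scaling, and open points have a limma adjusted p of 0.05 or more. Filled points lie among the ligands, the latency proteins and antagonists and the name-prefix genes; among receptors the grey point of Tgfbr2 is the only filled one.

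Among the ligands, Tgfb3, 1 of 3 mammalian TGF-beta isoforms, was at 12.0, 4.18, 3.64 and 6.33 CPM in the controls and at 38.7, 34.0, 29.0 and 23.9 CPM in PAN. The lowest PAN rat was above the highest control. The difference was 2.21 (95% interval 1.59 to 2.82, 4.61-fold, limma adjusted p = 0.000541). Bmp3, a BMP family ligand that opposes bone-forming BMPs, was at 20.6, 4.93, 5.22 and 8.96 CPM in the controls and 46.7, 67.1, 51.8 and 41.7 CPM in PAN. Control replicate 1 was the highest control for both genes, yet all PAN rats were above it. Bmp3 rose by 2.46 (1.63 to 3.29, 5.51-fold, limma adjusted p = 0.00113).

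Tgfb1, the isoform best known in kidney fibrosis, was at 110, 75.5, 69.4 and 97.4 CPM in the controls and 192, 161, 145 and 120 CPM in PAN. Its groups did not overlap, and the difference of 0.80 (0.44 to 1.16, 1.75-fold, limma adjusted p = 0.0057) was smaller than that of Tgfb3. Bmp6, a BMP ligand that also regulates iron through hepcidin, was at 99.1, 58.3, 71.0 and 84.7 CPM in the controls and 174, 123, 167 and 120 CPM in PAN, again without overlap. Bmp6 rose by 0.90 (0.48 to 1.31, limma adjusted p = 0.00684). With the class of title number as a term in the fit, the limma adjusted p was 0.00461 for Tgfb3 and 0.0198 for Bmp3. For Tgfb1 and Bmp6 it was then 0.134 and 0.151, so these calls were lost.

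The remaining ligands did not pass the test. Tgfb2 was at 63.1, 42.4, 47.4 and 77.9 CPM in the controls and 56.9, 47.5, 60.6 and 53.6 CPM in PAN, a difference of -0.04 (-0.42 to 0.33, limma adjusted p = 0.86). Bmp7, made by podocytes and distal tubule and known to protect the kidney, was at 107, 41.8, 49.0 and 52.5 CPM in the controls and 57.8, 55.9, 52.7 and 80.9 CPM in PAN. The control range enclosed the PAN range, and the interval of the difference, -0.76 to 0.88, was wide. Of the 6 loop, distal tubule and collecting duct markers 3 fell in PAN, and their part in the level of Bmp7 was not tested. Bmp4 was at 66.1, 18.8, 24.3 and 44.7 CPM in the controls and 33.9, 22, 28.5 and 28.2 CPM in PAN, and Bmp2 at 23.6, 20.3, 29.0 and 42.8 CPM against 28.3, 56.7, 39.6 and 35.5 CPM. Neither pair of groups separated. Inhbb, the beta-B subunit of activin and inhibin, was at 2.39, 2.03, 1.23 and 3.38 CPM in the controls and at 28.8, 4.03, 4.02 and 1.35 CPM in PAN, so that its mean in PAN rested on replicate 1.

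The promoter windows of Tgfb3, Bmp3 and Fstl1 are printed because these secreted proteins were called in PAN against control under all 18 alternatives tried. Each window runs from 250 bases before to 50 bases after the start of the gene in RefSeq, 5′ to 3′ on the gene's strand, in build GRCr8. The windows lie at chr6:111456897-111457196, chr14:11041233-11041532 and chr11:76454004-76454303, all on the minus strand. Capitals mark a match to CAGAC, the SMAD-binding element, in Bmp3 and to GGCGCC, the GC-rich SMAD site, in Fstl1.
Tgfb3: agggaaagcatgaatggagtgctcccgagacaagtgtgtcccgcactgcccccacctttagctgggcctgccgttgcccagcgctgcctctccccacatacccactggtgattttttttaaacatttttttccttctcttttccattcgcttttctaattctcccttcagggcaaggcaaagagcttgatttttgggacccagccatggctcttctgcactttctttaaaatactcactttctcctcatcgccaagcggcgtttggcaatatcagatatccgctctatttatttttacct
Bmp3: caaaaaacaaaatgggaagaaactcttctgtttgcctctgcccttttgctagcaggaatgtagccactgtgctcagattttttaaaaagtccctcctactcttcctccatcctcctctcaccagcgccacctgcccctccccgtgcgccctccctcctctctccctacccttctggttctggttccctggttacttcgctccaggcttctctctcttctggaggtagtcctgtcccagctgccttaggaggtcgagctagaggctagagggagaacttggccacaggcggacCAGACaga
Fstl1: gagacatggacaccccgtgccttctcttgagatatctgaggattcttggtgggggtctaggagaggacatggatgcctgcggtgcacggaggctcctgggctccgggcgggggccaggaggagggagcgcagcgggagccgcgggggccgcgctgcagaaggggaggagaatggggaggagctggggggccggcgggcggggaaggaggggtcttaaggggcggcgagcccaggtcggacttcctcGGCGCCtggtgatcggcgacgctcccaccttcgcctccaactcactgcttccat
Both motifs were searched on both strands (CAGAC also as GTCTG), as were the CRE (TGACGTCA), the AP-1 site (TGANTCA) and the CArG box, and none of the 5 was found in the Tgfb3 window. Of the 44 genes, 35 matched the RefSeq table by symbol and 33 of them had exactly 1 window. CAGAC was in 8 of these (24.2%) and in 50.1% of all 33469 windows, and GGCGCC was in 12 (36.4%) and in 11.0% of all. The member windows had a GC content of 63.6% and all windows 52.7%, which bears on how often each motif can occur. A match describes letters and not binding.

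**Figure D2:**
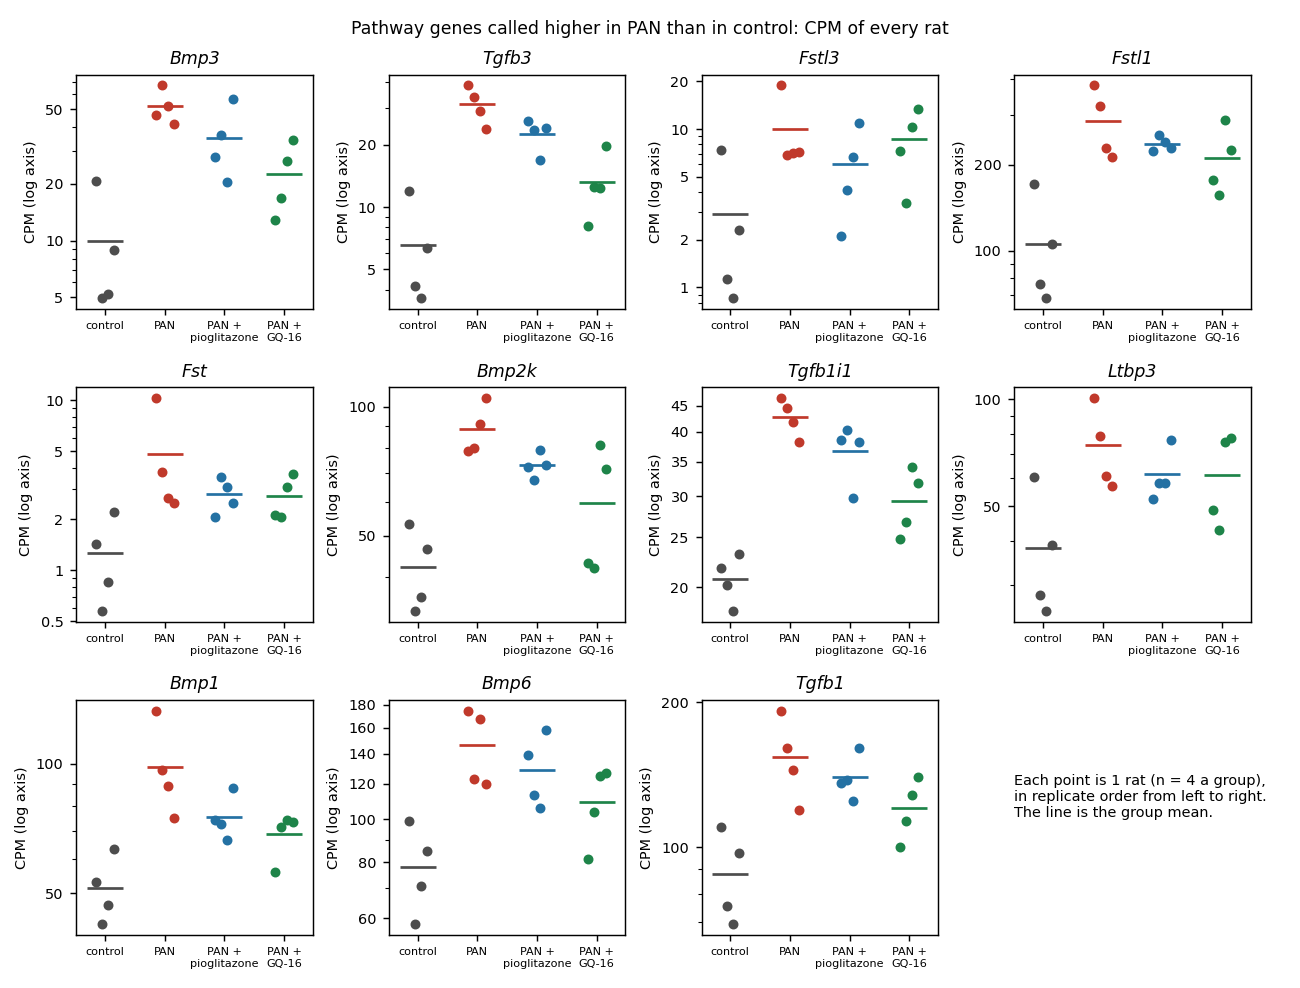
CPM of every rat, on a log axis, for the 11 genes that rose in PAN against control; each point is 1 rat in replicate order, n = 4 in each group, and the line is the group mean. In Tgfb3, Bmp3 and Tgfb1i1 all PAN points lie above all control points, and the GQ-16 points lie below all PAN points.

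Among the latency proteins and antagonists, 4 of 8 rose. Fstl1, a secreted glycoprotein of the follistatin family found mainly in mesenchymal cells, was at 171, 76.3, 68.0 and 105 CPM in the controls and 381, 321, 229 and 213 CPM in PAN, without overlap. Fstl1 rose by 1.49 (0.93 to 2.04, 2.80-fold, limma adjusted p = 0.00205). Fst, follistatin, which binds activins and keeps them from their receptors, was at 1.43, 0.576, 0.854 and 2.20 CPM in the controls and 10.3, 3.79, 2.65 and 2.47 CPM in PAN. The groups did not overlap, though PAN replicate 1 was far above the rest. Among the controls only replicate 4 reached 2 CPM, while every injected rat did. All genes of the table reached 2 CPM in at least 8 libraries, so Fst is listed through the injected groups. Fst rose by 1.23 (0.55 to 1.91, limma adjusted p = 0.0176). The call held without PAN replicate 1 and was lost without control replicate 2 or 3. It was also lost under quantile normalization, with only the 2 groups in the fit and with the class of title number in the fit, at limma adjusted p-values of 0.0824, 0.0538 and 0.229.

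Fstl3, a second activin antagonist, was at 7.35, 1.13, 0.854 and 2.32 CPM in the controls and 18.9, 6.85, 7.09 and 7.15 CPM in PAN. Control replicate 1 was as high as 3 of the PAN rats, so the groups overlapped. Fstl3 rose by 1.64 (0.57 to 2.71, limma adjusted p = 0.0329). Ltbp3, an LTBP needed for TGF-beta storage in bone matrix, was at 60.4, 28.2, 25.3 and 38.8 CPM in the controls and 101, 78.9, 60.9 and 56.9 CPM in PAN. Its groups overlapped through control replicate 1, and Ltbp3 rose by 0.99 (0.43 to 1.55, limma adjusted p = 0.019). The calls of Fstl3 and Ltbp3 were each lost without control replicate 2 or 3 and without PAN replicate 1 or 2. Both were also lost with the class of title number in the fit, at limma adjusted p-values of 0.38 for Fstl3 and 0.284 for Ltbp3, and that of Fstl3 under each change of scaling tried.

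The other 4 of this role did not pass the test. Ltbp1, the LTBP first found with platelet TGF-beta, was at 451, 521, 563 and 611 CPM in the controls and 340, 497, 638 and 353 CPM in PAN, and the groups overlapped. Ltbp2, a microfibril protein that does not bind latent TGF-beta, was at 7.54, 2.18, 1.99 and 2.15 CPM in the controls and 26.6, 3.32, 4.19 and 3.46 CPM in PAN. In both groups replicate 1 was far above the other rats. Ltbp4 had 169 CPM in PAN replicate 1 and 39.9 to 48.7 CPM in the other PAN rats, beside 35.4 to 49.1 CPM in the controls. Grem1, gremlin, an antagonist of BMP2, BMP4 and BMP7, was at 1.88, 3.83, 4.52 and 2.15 CPM in the controls and 9.88, 3.79, 2.54 and 2.21 CPM in PAN, where again replicate 1 was the highest. PAN replicate 1 is the library with the high fibroblast marker sum, most of it Col1a1, and the part of fibroblasts in these values was not tested.

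None of the 12 receptors was called in PAN as deposited. Their differences ran from -0.52 to 0.61, with limma adjusted p-values of 0.0674 to 0.704. Tgfbr2, the type II receptor that binds TGF-beta, had the lowest difference. It was at 789, 888, 970 and 1177 CPM in the controls and 664, 679, 846 and 498 CPM in PAN, and 1 PAN rat lay within the control range. The difference was -0.52 (-0.94 to -0.10, limma adjusted p = 0.0674) as deposited and -0.82 (-1.28 to -0.36, limma adjusted p = 0.0305) after median-ratio scaling, so its call depends on the scaling while its direction does not. The summed endothelial markers were 5480 to 7824 CPM in control and 4738 to 7190 CPM in PAN. Of the 8 markers, 2 had a positive difference as deposited, and the median was -0.20 beside 0.28 for all genes. After median-ratio scaling 1 was positive and the median was -0.50. Plvap, the 1 called under both scalings, rose, from a mean of 81.5 CPM to 213 CPM. The part of these markers in the level of Tgfbr2 was not tested. Tgfbr1, the type I receptor ALK5, was at 48.2, 38.0, 45.4 and 41.7 CPM in the controls and 63.9, 49.8, 50.3 and 52.7 CPM in PAN. Its groups did not overlap, but the difference of 0.31 (0.06 to 0.57, limma adjusted p = 0.0692) was close to the shift of all genes. Tgfbr3, betaglycan, was at 211, 132, 107 and 139 CPM against 274, 145, 173 and 151 CPM. Bmpr2, the main type II BMP receptor, was at 206, 245, 239 and 292 CPM against 195, 228, 282 and 217 CPM. Neither pair separated.

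The 8 SMADs ran from -0.19 to 0.44 in PAN against control, with limma adjusted p-values of 0.0617 to 0.701. Smad3, which carries much of the fibrotic TGF-beta signal, was at 62.0, 39.8, 44.7 and 45.8 CPM in the controls and 74.0, 65.3, 65.7 and 54.7 CPM in PAN. PAN replicate 4 lay below control replicate 1, and the difference was 0.44 (0.09 to 0.78, limma adjusted p = 0.0617). Smad2 was at 39.0, 27.4, 31 and 37.8 CPM against 39.8, 40.8, 37.9 and 33.6 CPM, and Smad4 at 65.5, 56.0, 56.3 and 70.8 CPM against 67.3, 67.9, 73.5 and 70.0 CPM. The inhibitory Smad6 was at 84.2, 171, 133 and 103 CPM against 205, 157, 189 and 85.9 CPM, and the inhibitory Smad7 at 131, 173, 154 and 165 CPM against 196, 176, 209 and 142 CPM. PAN replicate 4 was the lowest PAN rat for both, and the groups overlapped. That rat had the most proximal tubule marker RNA in its group. It also had the least podocyte marker RNA (7614 CPM) and the least endothelial marker RNA, 4738 CPM against 5823 to 7190 CPM. The part of these marker differences was not tested. Smurf1 and Smurf2 differed by 0.35 and 0.27, with limma adjusted p-values of 0.0902 and 0.142. Leaving out control replicate 1 raised the count of members called to 16, adding Bmpr1a, Smad3, Smurf1 and Tgfbr1 as higher and Tgfbr2 as lower. In that fit 37.5% of all genes were called against 36.4% of the members, so the gain was shared by the whole table. Leaving out PAN replicate 4 raised the count to 15, adding Smad1, Smad3, Smurf1 and Smurf2, which is 34.1% of the members beside 24.4% of all genes.

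**Figure D3:**
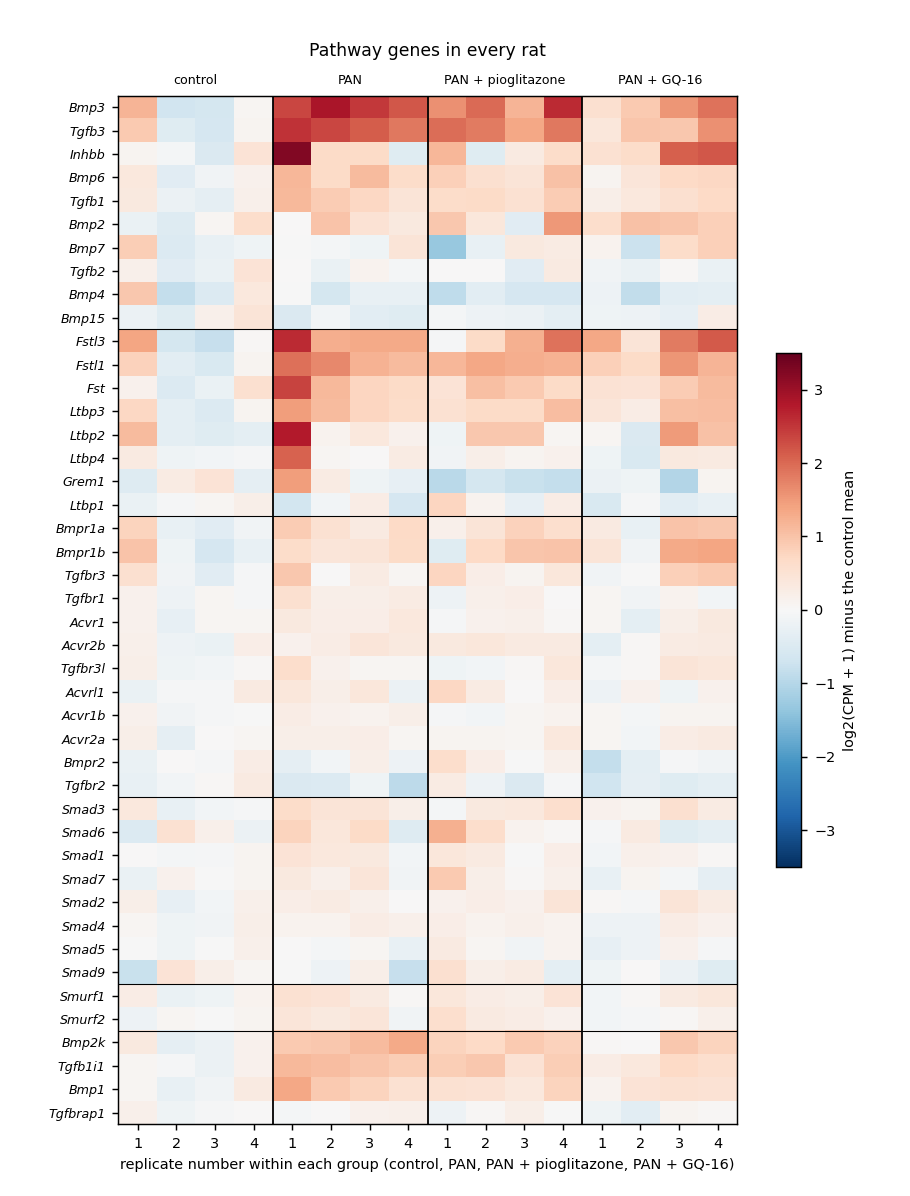
Log2(CPM + 1) minus the control mean for the 44 genes (rows, grouped by role) in each of the 16 rats (columns, numbered by replicate within group); red is above the control mean and blue below. PAN replicate 1 has the darkest cells of Inhbb, Fstl3, Ltbp2 and Ltbp4, and most cells of the receptor, SMAD and SMURF rows are pale.

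Of the genes that share only a name prefix or process matrix, 3 of 4 rose. Tgfb1i1, also called Hic-5, a LIM-domain protein of focal adhesions induced by TGF-beta, was at 21.8, 20.2, 18.0 and 23.2 CPM in the controls and 46.5, 44.5, 41.8 and 38.3 CPM in PAN. The rats of each group lay close together, and Tgfb1i1 rose by 1.01 (0.73 to 1.28, 2.01-fold, limma adjusted p = 0.000408), with the smallest p of the 44 genes. Bmp1, the procollagen C-proteinase and no BMP ligand, was at 53.3, 42.5, 47.0 and 63.5 CPM in the controls and 133, 96.9, 88.8 and 74.8 CPM in PAN. Bmp1 rose by 0.90 (0.55 to 1.26, limma adjusted p = 0.00278), a call lost with the class of title number in the fit (difference 0.67, limma adjusted p = 0.0668). Bmp2k, a kinase linked to clathrin-coated vesicles, was at 53.1, 33.3, 35.9 and 46.5 CPM in the controls and 78.8, 80.2, 91.0 and 105 CPM in PAN, a rise of 1.07 (SE 0.20, limma adjusted p = 0.00298). The groups did not overlap for any of these 3 genes. Tgfbrap1, a vesicle-tethering protein, differed by 0.06 (limma adjusted p = 0.699).

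The other genes of the pathway were taken from lists chosen by function. Of 29 listed further ligands, extracellular modulators and co-receptors, 14 rose in PAN and none fell, where 22.3% of all genes were called, with a median difference of 0.69 beside 0.28 for all genes; after median-ratio scaling 11 of them rose, beside 8.63% of all genes, and without PAN replicate 1 the count was 10, beside 7.93%. Those with the smallest p were Hjv, a BMP co-receptor, which rose by 3.98, Fbn1, the fibrillin to which LTBPs attach, by 1.91, Bgn, a proteoglycan that binds TGF-beta, by 1.75, and Thbs1, which can activate latent TGF-beta, by 1.47, with limma adjusted p-values of 0.000877, 0.000877, 0.00207 and 0.00228. Htra1 and Furin, the highest of those not called, differed by 0.62 and 0.14. Of 27 intracellular regulators of SMAD signalling, 3 were called, all higher, where 22.3% of all genes were called, and their median of 0.24 was below that of all genes. These were Pmepa1, Ppp1r15a and Tgif2, which differed by 0.99, 0.50 and 0.58. The count and direction depended on the scaling: after median-ratio scaling Pmepa1 was called higher and Zfyve9, which presents SMADs to the receptor, lower, and 9 of the 27 had a positive difference in place of 23. The count was 1 (Pmepa1) without PAN replicate 1, where 7.93% of all genes were called, and 9 without control replicate 1, where 37.5% were.

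Of 25 listed target genes of TGF-beta, 19 rose in PAN and none fell, where 22.3% of all genes were called, and their median was 1.56. Without PAN replicate 1, 15 rose beside 7.93% of all genes and the median was 1.06; without PAN replicate 1 and control replicate 1, 18 rose beside 20.4% and the median was 1.14. Cdkn1a, a cell cycle inhibitor, had a mean of 49.2 ± 14.2 CPM in PAN and of 11.9 ± 2.88 CPM in the controls (SD, n = 4), a rise of 1.95 with a limma adjusted p of 4.32e-05. Acta2 and Tagln, contractile proteins of smooth muscle and myofibroblasts, rose by 2.72 and 3.21, and Loxl2, a collagen cross-linking enzyme, by 2.42. Their limma adjusted p-values were 0.000628, 0.000684 and 0.000815. Without PAN replicate 1 the rises of Acta2, Tagln and Loxl2 were 2.31, 2.66 and 2.03, and each was called. Lox, also among the 19, was at most 1.69 CPM in the controls, so it too is listed through the injected groups. Fn1 and Nox4, the highest of those not called, differed by 0.85 and -0.68. Their PAN rats were far apart and enclosed the controls. Fn1 ran from 154 to 1211 CPM in PAN and from 225 to 340 CPM in control, and Nox4 from 27.3 to 265 CPM and from 115 to 191 CPM. Acta2 and Col1a1 are also on the mesangial and fibroblast marker lists, and Thbs1 and Bgn on the modulator list. Pmepa1 and Skil are also on the list of intracellular regulators, and Bambi is both a listed modulator and a listed BMP target. After median-ratio scaling 15 of the 25 were called, beside 8.63% of all genes, with a median of 1.26. Of 8 listed BMP target genes, 2 rose and none fell, a share near the 22.3% of all genes called, and the median was 0.02 as deposited and -0.26 after median-ratio scaling. These were Atoh8, a transcription factor, which rose by 1.59, and Bambi, a pseudoreceptor that dampens TGF-beta and BMP signals, by 1.74, with limma adjusted p-values of 0.000871 and 0.0115. Id1 and Id3, inhibitors of DNA binding that BMP signalling induces in many cells, differed by 0.23 and 0.18 and were not called. The lists were assembled from general knowledge and are described by counts and medians. Of the genes chosen, the table held 25 of 31 TGF-beta targets, 8 of 11 BMP targets, 29 of 45 modulators and all 27 intracellular regulators. Whether the lists differ from other genes was not tested.

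**Figure D4:**
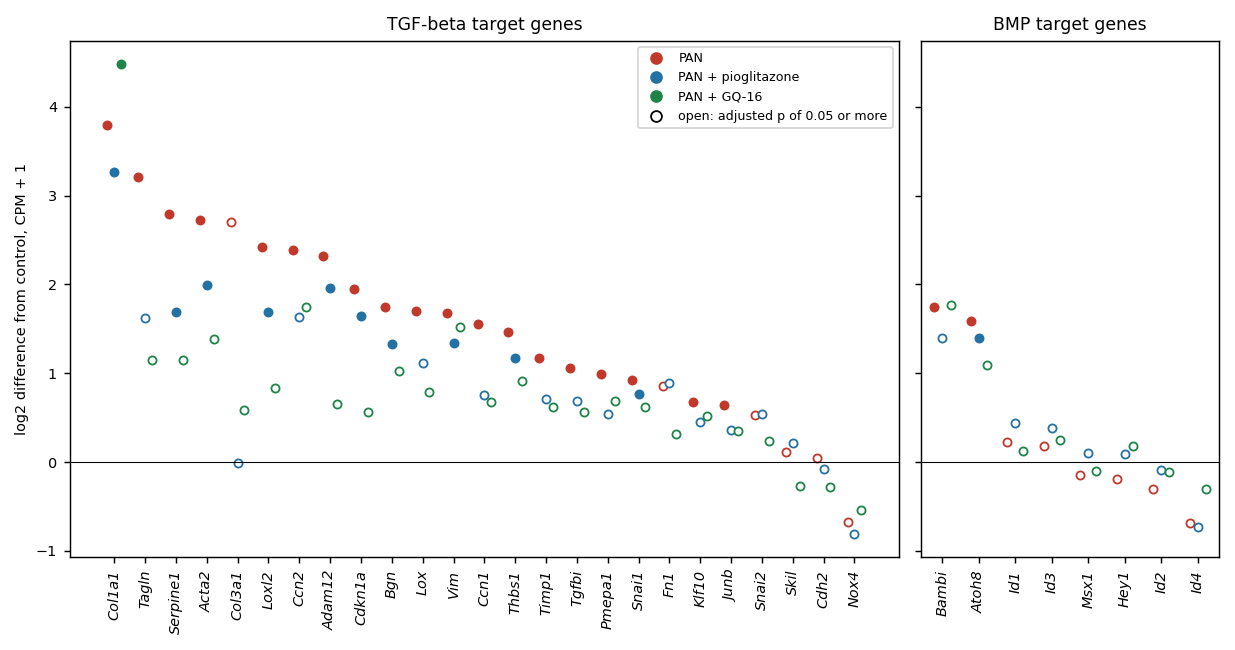
Log2 difference of CPM + 1 from the 4 control rats for 25 TGF-beta target genes (left) and 8 BMP target genes (right) in the 3 injected groups; open points have a limma adjusted p of 0.05 or more. In PAN 19 of 25 points on the left and 2 of 8 on the right are filled, with pioglitazone 10 of 25 and 1 of 8 are, and under GQ-16 1 of 25 (Col1a1) and none of 8, all scaled as deposited.

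The treated groups were next set beside the same 4 controls; since all 3 differences share those controls, they are given side by side and not as independent results. In PAN plus pioglitazone 7 of the 44 genes rose and none fell, which is 15.9% of the members where 4.98% of all genes were called (4.7% higher and 0.287% lower). The 7 were Bmp3, Tgfb3, Fstl1, Bmp2k, Tgfb1i1, Bmp6 and Tgfb1. Tgfb3 was at 25.9, 23.4, 16.8 and 24 CPM with pioglitazone, above all controls, a difference of 1.75 (limma adjusted p = 0.0077). Tgfb1i1 was at 38.5, 40.4, 29.8 and 38.2 CPM, also above all controls, with a difference of 0.79 (limma adjusted p = 0.0077). These 2 genes were called under all 19 alternatives tried. Bmp3 was at 27.9, 36.3, 20.4 and 56.4 CPM, of which the lowest was just under control replicate 1. Fstl1, at 224, 254, 240 and 229 CPM, had the narrowest spread of its 4 groups and a difference of 1.26 (limma adjusted p = 0.0181). The groups did not overlap for 9 members that were higher and for Grem1, which was lower with pioglitazone, 22.7% of the members against 14.1% of all genes (13.1% higher and 1.06% lower). After median-ratio scaling 4 members were called, Bmp3, Fstl1, Tgfb1i1 and Tgfb3, beside 2.85% of all genes (2.22% higher and 0.628% lower). As deposited, the count was 2 without control replicate 2, control replicate 3 or pioglitazone replicate 2, where 0.363%, 0.492% and 0.431% of all genes were called. It was 3 without pioglitazone replicate 4 and 4 without pioglitazone replicate 1, beside 1.3% and 3.62% of all genes. Of the listed TGF-beta targets 10 of 25 were called higher with pioglitazone against control and 7 after median-ratio scaling, and of the BMP targets 1 of 8 (Atoh8) in both.

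In PAN plus GQ-16 none of the 44 genes was called against control by limma, where 0.151% of all genes were; voom on the recovered reads called none either. At an unadjusted p under 0.05 there were 14, beside 23.9% of all genes, and the smallest adjusted limma p was 0.0864, for Fstl1. The count of 14 was 6 without control replicate 3, 7 without GQ-16 replicate 4 and 8 without control replicate 2 or GQ-16 replicate 3. Fstl1 was at 177, 157, 288 and 226 CPM, of which 1 rat lay below the highest control, and its difference was 1.06 (0.50 to 1.62). Tgfb3 was at 8.11, 12.5, 12.3 and 19.8 CPM, with replicate 1 inside the control range, and its difference was 0.97 (0.36 to 1.59, limma adjusted p = 0.105). Bmp3 was at 12.8, 16.7, 26.4 and 34.1 CPM, with 2 rats below control replicate 1, and its difference was 1.22 (0.40 to 2.05, limma adjusted p = 0.113). Tgfb1i1, at 24.9, 26.8, 34.2 and 31.8 CPM, lay above all controls. The groups also did not overlap for Bmp2 and Inhbb, higher with GQ-16, and Tgfbr2, lower, 9.09% of the members against 6.01% of all genes (4.92% higher and 1.09% lower). Of the TGF-beta targets 1 of 25 (Col1a1) was called higher under both scalings, and of the BMP targets none of 8 as deposited and 2 (Atoh8 and Bambi) after median-ratio scaling, which called 0.741% of all genes. The count of 0 members rested on control replicate 1: without it 7 members were called, Bmp3, Fstl1, Fstl3, Ltbp3, Tgfb1, Tgfb1i1 and Tgfb3, all higher with GQ-16. That is 15.9% of the members, and the share of all genes called rose as well, to 11.9%. A call in PAN and none with GQ-16 does not show that the groups differ, which was tested directly below.

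**Figure D5:**
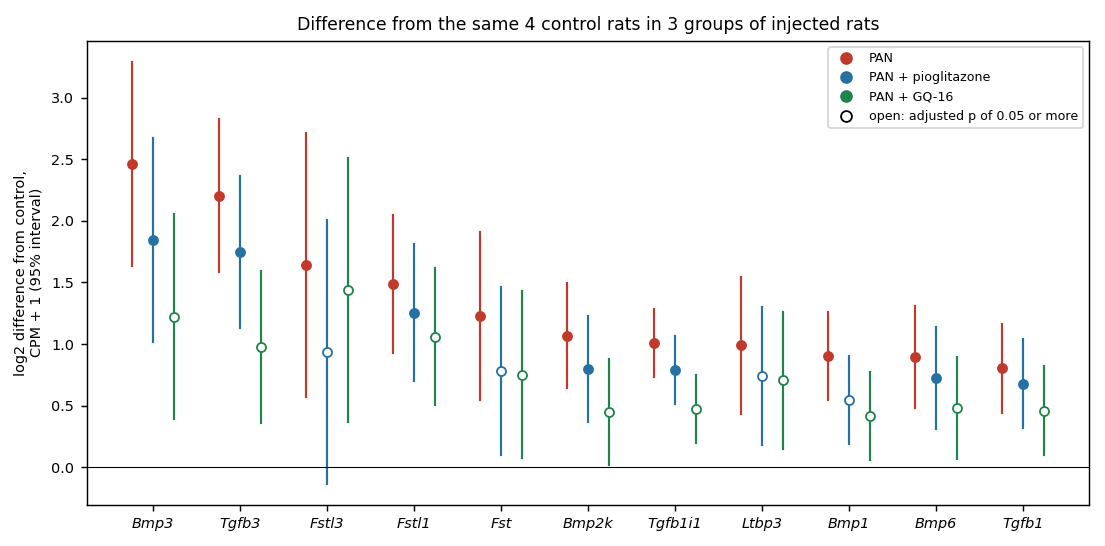
Log2 difference of CPM + 1 from the same 4 control rats, with 95% intervals from limma, for the 11 genes that rose in PAN; filled points have a limma adjusted p under 0.05. For Tgfb3 the points are 2.21 (PAN), 1.75 (pioglitazone) and 0.97 (GQ-16), and the intervals overlap for every gene.

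PAN plus pioglitazone was compared with PAN to show what the drug changed in injured rats. None of the 44 genes was called by limma or by voom, as were 0.00% of all genes, and 1 had an unadjusted p under 0.05, beside 3.74% of all genes; with 1 rat left out this count was 1 to 5. That gene was Grem1, at 1.07, 1.60, 1.30 and 1.22 CPM with pioglitazone and 2.21 to 9.88 CPM in PAN. The highest PAN value was that of replicate 1, which adds to the size of the difference. The groups did not overlap, and the difference was -1.11 (-1.83 to -0.39, limma adjusted p = 0.916). Acvr1 and Acvr1b, type I receptors, were also lower in all 4 treated rats, with differences of -0.21 and -0.17, so that 6.82% of members did not overlap against 2.76% of all genes (2.36% lower). For Tgfb3 the difference from PAN was -0.46 (-1.07 to 0.16), for Bmp3 -0.62 (-1.44 to 0.21), for Tgfb1i1 -0.22 (-0.49 to 0.05) and for Tgfb1 -0.12 (-0.48 to 0.23). Each of these intervals holds 0.

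In PAN plus GQ-16 against PAN, again none of the 44 genes was called by limma or by voom, where 0.0151% of all genes were, and 7 had an unadjusted p under 0.05, beside 8.27% of all genes; without PAN replicate 4 this count was 13. The groups did not overlap for 6 members, each lower with GQ-16: Tgfb3, Bmp3, Tgfb1i1, Bmp1, Tgfbr1 and Acvr1b. That is 13.6% of the members where 3.62% of all genes did not overlap (3.47% lower). For Tgfb3 the highest rat on GQ-16, at 19.8 CPM, was below the lowest PAN rat, at 23.9 CPM, and the difference was -1.23 (-1.85 to -0.61, limma adjusted p = 0.298). For Bmp3 the corresponding values were 34.1 and 41.7 CPM, with a difference of -1.24 (-2.07 to -0.41, limma adjusted p = 0.421). For Tgfb1i1 they were 34.2 and 38.3 CPM, with a difference of -0.53 (-0.81 to -0.26, limma adjusted p = 0.304). Bmp1 was at 56.1 to 74.2 CPM on GQ-16 and from 74.8 CPM in PAN, and differed by -0.49 (-0.84 to -0.13, limma adjusted p = 0.447). None of these differences passed the test over all genes. The median of all genes was -0.11 in this comparison and that of the members -0.20. The summed mesangial and smooth muscle markers lay between 706 and 1287 CPM on GQ-16 against 1564 to 2400 CPM in PAN, without overlap. Des made up 257 CPM of the mean sum of 985 CPM on GQ-16 and 725 CPM of that of 1928 CPM in PAN. Taken singly, Des and Serpine2 did not overlap, while Pdgfrb, Itga8, Gata3, Myh11 and Acta2 did. All 7 markers had a negative difference and none was called. Of the target lists 1 of 25 TGF-beta targets and none of 8 BMP targets were called on GQ-16 against PAN. That target, Cdkn1a, was lower on GQ-16, at 18.0 ± 3.15 CPM against 49.2 ± 14.2 CPM in PAN (SD, n = 4), a difference of -1.38 (limma adjusted p = 0.0189). After median-ratio scaling it was not called (limma adjusted p = 0.0695). Whether the level of this 1 gene follows TGF-beta signalling in these rats was not tested.

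The 2 PPAR-gamma agonists were compared with each other on all 44 genes in 1 test family over 13222 genes; the labels do not give their doses, so the doses cannot be said to match. No member was called by limma or by voom, as were 0.00% of all genes, and 6 had an unadjusted p under 0.05, each lower with GQ-16, beside 5.94% of all genes. That count of 6 moved with single rats: it was 2 without pioglitazone replicate 1, 1 without GQ-16 replicate 1 and 9 without pioglitazone replicate 3. Bmpr2 was at 372, 287, 243 and 276 CPM with pioglitazone and 137, 192, 235 and 224 CPM with GQ-16. It was the only member whose groups did not overlap, 2.27% of the members against 2.14% of all genes (1.94% lower), and its difference was -0.59 (-0.98 to -0.20, limma adjusted p = 0.724). Ltbp1 was at 897, 578, 438 and 634 CPM with pioglitazone and 366, 522, 410 and 444 CPM with GQ-16, a difference of -0.51 (-0.99 to -0.03). Smad7 was at 296, 177, 158 and 176 CPM against 129, 166, 149 and 124 CPM, a difference of -0.47 (-0.86 to -0.08). Pioglitazone replicate 1 was the highest rat for all 3 of these genes, and that rat also had the most endothelial marker RNA, 10098 CPM against 5445 to 7293 CPM in the other rats on pioglitazone. Tgfb3 differed by -0.77 (-1.39 to -0.16, limma adjusted p = 0.725), with 1 GQ-16 rat inside the range of the pioglitazone group. Tgfb1 differed by -0.22 (-0.58 to 0.14) and Fstl1 by -0.20 (-0.75 to 0.36), intervals that allow either drug to have the higher level.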

How the data were processed

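Stranded poly(A) libraries of sieved glomeruli were aligned and counted by the authors with HISAT2 and featureCounts of the Subread package on build Rnor_6.0, and limma is also named, per the submitters' processing notes. The roles and versions of these tools are not given in the sources used here. The deposited table holds log2 CPM of 13222 genes in 16 libraries. Its values came out as whole reads for 100.0% of entries (within 0.01 read) once 0.5 had been taken off each count and 1 off each total. Per the values, all genes reached 2 CPM in at least 8 libraries. No table column belonged to another series.

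From these values log2(CPM + 1) was fitted with limma 3.58.1 in R 4.3.3, with 1 mean per group, 1 spread shared by the 4 groups and an empirical Bayes trend, and p-values were adjusted over all genes for each of 6 comparisons. This fold scale understates the change of low genes. Groups came from the labels, and replicate numbers only follow the order of the samples. The members, gene lists and tests were chosen with earlier results of these data known. Every rat is shown for members called in any comparison and for fixed core members. From each list up to 4 called genes with the smallest p and up to 2 uncalled genes with the highest level are named. Inhba was not analysed here. Alternatives covered scaling, voom, pseudocount, low-value filter, groups in the fit, title number and leaving out rats, and 3 were added after seeing the data. The fit was tested on simulated data. Promoter windows came from RefSeq, build GRCr8.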

Additional observations from a re-analysis of the deposited data

Results flagged for a closer look

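In each group of 4 rats, the gap between the most extreme rat and its nearest neighbour was compared with the range of the group. Of 176 groups, 8 had a rat that stood apart, where chance would give about 8.8 (1 in 20), so the number itself is what chance gives. In PAN replicate 1, Ltbp4 was at 169 CPM against 39.9 to 48.7 CPM in the other PAN rats, Ltbp2 at 26.6 CPM against 3.32 to 4.19 CPM, Fstl3 at 18.9 CPM against 6.85 to 7.15 CPM and Tgfbr3l at 6.65 CPM against 4.19 to 4.5 CPM. That is the rat with 1858 CPM of fibroblast markers. In control replicate 1, Ltbp2 was at 7.54 CPM against 1.99 to 2.18 CPM. Acvr2a was lowest in PAN replicate 4, at 40.7 CPM against 44.7 to 45.2 CPM, and highest in pioglitazone replicate 4, at 50.2 CPM against 40.7 to 41.4 CPM. Bmp1 was lowest in GQ-16 replicate 1, at 56.1 CPM against 71.4 to 74.2 CPM.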

How the results depend on the processing

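No alternative turned the direction of a called member. In PAN against control, 5 of the 11 calls (Bmp2k, Bmp3, Fstl1, Tgfb1i1 and Tgfb3) held in all 18 alternatives, and in PAN plus pioglitazone against control 2 of the 7 (Tgfb1i1 and Tgfb3) held in all 19. The PAN count of 11 was 5 with the class of title number in the fit, both as deposited and after median-ratio scaling (2.97% and 2.88% of all genes called), and 8 to 16 with 1 rat left out (6.34% to 37.5% of all genes called). The pioglitazone count of 7 was 4 after median-ratio scaling, with voom and with the title-number class plus median-ratio scaling (2.85%, 1.89% and 3% of all genes called), 3 among title numbers of 15 or lower (2.16% of all genes called), 12 without both PAN replicate 1 and control replicate 1 (13% of all genes called), and 2 to 8 with 1 rat left out (0.363% to 12.6%). Of those 12, 11 were higher and Grem1 was lower. For GQ-16 against control the count of 0 was 8 without both of those rats, and 0 to 7 with 1 rat left out, the 7 without control replicate 1. In these 2 fits 12.3% and 11.9% of all genes were called in place of 0.151%, so the members gained calls along with the whole table. Leaving out both rats, scaling to reads outside mitochondrial genes, and the title-number class with median-ratio scaling were chosen after seeing the data. Beyond the smaller number of rats in some fits, the cause was not tested. Counts between injected groups were 0 in each alternative run. Comparisons with PAN were not run among title numbers of 15 or lower, where PAN keeps 1 rat. No paired analysis was possible because replicate numbers follow sample order and the labels pair no rats. With 4 rats a group and intervals of this width, absent calls do not show equal levels.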

Other observations

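Some members varied widely within groups and are set here beside the podocyte markers. On GQ-16, Bmpr1b, a type I BMP receptor, was at 6.95, 4.31, 13.7 and 14 CPM, Inhbb at 3.60, 3.93, 12.5 and 13.2 CPM, and Bmp7 at 63.6, 34.0, 91.8 and 105 CPM. The summed podocyte markers of the same rats were 8081, 4460, 12115 and 15035 CPM. In that group replicates 3 and 4 were the highest for each. On pioglitazone Bmpr1b was at 3.30, 8.38, 10.4 and 10.6 CPM and Bmp7 at 22.5, 48.1, 74.5 and 71.2 CPM, where podocyte markers summed to 4906, 7118, 9606 and 12422 CPM. Inhbb did not follow that order: it was at 6.03, 1.37, 2.94 and 3.93 CPM, highest in the rat with the least podocyte marker RNA. In the controls Bmpr1b was at 10.6, 4.28, 2.88 and 3.82 CPM and Bmp7 at 107, 41.8, 49.0 and 52.5 CPM, and replicate 1 had the most podocyte marker RNA, 9563 CPM. Inhbb, at 2.39, 2.03, 1.23 and 3.38 CPM in the controls, was highest in replicate 4 instead. The PAN rats did not show that order: replicate 4 had the lowest podocyte sum of the 4, 7614 CPM against 8979 to 10919 CPM, and the highest Bmp7, 80.9 CPM against 52.7 to 57.8 CPM, and Bmpr1b, 8.34 CPM against 6.73 to 8.13 CPM. The mitochondrial share of reads ran in the reverse order of the podocyte sum on GQ-16 (18.0%, 30.9%, 9.0% and 6.63%) and on pioglitazone (19.0%, 15.9%, 12.5% and 8.61%). In the controls it was lowest in replicate 1, at 13.7%, and in PAN it was 5.83%, 9.72%, 10.6% and 10.1%. The part of podocyte content or of the mitochondrial share in these values was not tested.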
